A study of Homo sapiens with 12 samples.

Results

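The respiratory chain genes described here are the nuclear and mitochondrial genes for subunits of complexes I to IV and of the ATP synthase (complex V). They were taken by name from the deposited gene tables: the NDUF, SDH, UQCR, COX and ATP5 families plus the protein genes of mitochondrial DNA. Of 207 matching names, 110 were left out as pseudogenes, antisense, divergent or readthrough transcripts, and 7 of the 97 protein-coding candidates averaged under 1 CPM (the counts-per-million scale) over the 12 libraries. The remaining 90 genes, of 54553 in the tables, were 77 nuclear and 13 mitochondrial genes, and all 90 passed the low-count filter. The nuclear genes comprised 36 of complex I, 4 of complex II, 8 of complex III, 11 of complex IV and 18 of complex V. The mitochondrial genes comprised 7 of complex I, 1 of complex III, 3 of complex IV and 2 of complex V. NDUFA4 was placed in complex IV, where its protein is known to sit despite its name. The lowest gene kept was ATP5ME at 2.33 CPM, and the highest protein-coding candidate under 1 CPM was ATP5MGL at 0.131 CPM.

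RNA was sequenced from Caco-2, a line grown from a human colon carcinoma that can differentiate towards absorptive intestinal cells, labelled as wild type. In 4 groups of 3 libraries each, the cells had 48 h of depleted medium with bafilomycin A1, depleted medium with vehicle, rich medium with bafilomycin A1, or rich medium with vehicle. The depleted medium was DMEM with 0.1 g/L glucose, 0.2 mM glutamine and 1% serum, and the rich medium was EMEM with 1 g/L glucose, 2 mM glutamine and 20% serum, so base medium and serum changed along with glucose and glutamine. Both held pyruvate and non-essential amino acids. Bafilomycin A1, which blocks the V-ATPase and so keeps lysosomes from acidifying, was given at 100 nM. Separate cultures per replicate are not stated in the labels, and the p-values therefore reflect spread among libraries that may be technical.

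Complexes I and II pass electrons from NADH and succinate to coenzyme Q, complex III passes them on to cytochrome c, and complex IV hands them to oxygen. Complexes I, III and IV pump protons across the inner membrane, and complex V lets the protons back in to make ATP. Mitochondrial DNA encodes a small set of core subunits, whereas complex II and all other subunits come from nuclear genes, so assembly draws on both genomes.

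Libraries held 12969811 to 51649207 reads assigned to genes, the lowest being replicate 1 of rich medium with vehicle. Of 10 intestinal epithelial markers, 7 averaged at least 1 CPM, with a summed level of 3109 to 8897 CPM per library. CDX1 was at or below 0.0724 CPM in every library and KRT20 at or below 0.490 CPM. Summed markers reached 22.3 to 54.8 CPM for fibroblasts, 1.64 to 4.34 CPM for leukocytes, 3.13 to 14.6 CPM for endothelium and 0 to 0.289 CPM for muscle, with 3 of 6, 1 of 4, 2 of 3 and 0 of 3 genes at 1 CPM or more. The part of these markers in the results was not tested. By CPM, replicate 3 of rich medium with vehicle was the highest of its group for 67 of 77 nuclear genes, and replicate 2 of that group was the highest for 13 of 13 mitochondrial genes. Replicate 1 of rich medium with vehicle and replicate 3 of rich medium with bafilomycin A1 were judged, after seeing the data, to stand apart across all genes. No measure of this is given here, and counts without both are given beside the main ones.

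COX1, the catalytic subunit of complex IV, had the highest mean level of the set per length, 8451 TPM (the length-corrected transcripts-per-million scale). COX3 followed at 2509 TPM, COX2 at 1515 TPM and ND4L at 1362 TPM. ND6, the gene of the set on the opposite mitochondrial strand, averaged 106 TPM. Among nuclear genes the highest mean levels were COX6A1 at 497 TPM, ATP5F1B at 442 TPM, COX7C at 378 TPM and ATP5F1C at 353 TPM. The lowest nuclear level was UQCRB at 2.72 TPM. Isoforms known from muscle or testis gave little or no signal: COX6A2, COX7A1 and COX7B2 were listed at 0 reads in all libraries, COX8C averaged 0.00167 CPM and COX6B2 0.122 CPM.

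Together the 77 nuclear genes took 0.423, 0.397 and 0.451% of reads in depleted medium with bafilomycin A1 and 0.456, 0.438 and 0.501% in depleted medium with vehicle. They took 0.561, 0.571 and 0.523% in rich medium with bafilomycin A1 and 0.614, 0.50 and 0.827% in rich medium with vehicle. All depleted libraries lay below all rich libraries in the bafilomycin A1 pair, and the vehicle groups met, with a highest depleted library of 0.501% and a lowest rich library of 0.50%. Per length, the nuclear genes took 1.19, 0.971 and 0.961% of TPM in rich medium with vehicle. In depleted medium with vehicle they took 0.593, 0.519 and 0.598% of TPM, without overlap. Replicate 3 of rich medium with vehicle was thus the highest of its group by reads and the lowest by TPM. The median gap between length and effective length, which enters TPM, was 208 to 260 bases in rich medium with vehicle. It was 208 to 222 bases in depleted medium with vehicle, and its part in the TPM shares was not tested. The 13 mitochondrial genes took 1.14, 1.15 and 0.709% of reads in depleted medium with bafilomycin A1 and 1.08, 1.63 and 0.776% in depleted medium with vehicle. They took 1.57, 1.24 and 1.36% in rich medium with bafilomycin A1 and 1.46, 3.37 and 0.986% in rich medium with vehicle. All depleted libraries again lay below all rich ones with bafilomycin A1, and the vehicle groups overlapped. The log2 ratio of summed nuclear to summed mitochondrial reads averaged -1.21 ± 0.48 in depleted medium with bafilomycin A1, -1.26 ± 0.63 in depleted medium with vehicle, -1.33 ± 0.19 in rich medium with bafilomycin A1 and -1.42 ± 1.26 in rich medium with vehicle (SD, n = 3 each). These means differed by less than the spread between replicates. In bulk RNA, fewer cells expressing a gene and less RNA per cell cannot be told apart.

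**Figure D1:**
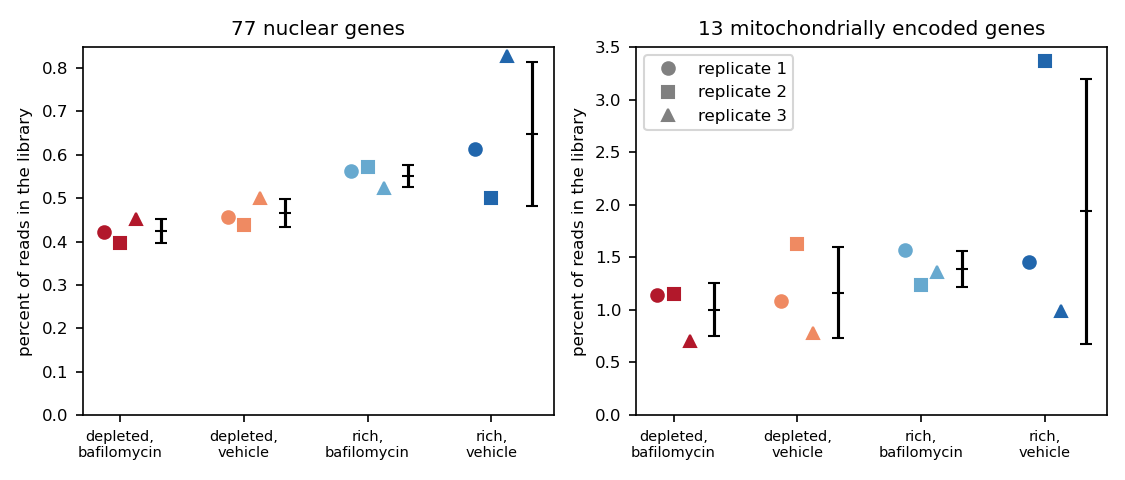
Percent of each library's reads assigned to the 77 nuclear (left) and 13 mitochondrial (right) respiratory chain genes, by group; points are libraries, with the mean and SD beside them. Nuclear shares in the 6 depleted libraries run from 0.397 to 0.501% and in the 6 rich libraries from 0.50 to 0.827%; the highest mitochondrial share, 3.37%, is replicate 2 of rich medium with vehicle.

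Summed by complex and per length, every nuclear group of subunits averaged lower in depleted than in rich medium. Nuclear complex I genes summed to 1510 ± 85.0 TPM in depleted medium with bafilomycin A1 and 2021 ± 282 TPM in rich medium with bafilomycin A1. With vehicle they summed to 1522 ± 73.1 TPM in depleted and 2672 ± 234 TPM in rich medium. Complex V genes summed to 1815 ± 139 against 2463 ± 291 TPM with bafilomycin A1, and to 1885 ± 231 against 3687 ± 767 TPM with vehicle. Complex II genes, the smallest group, summed to 290 ± 22.5 against 354 ± 66.4 TPM with bafilomycin A1, and to 253 ± 26.2 against 485 ± 146 TPM with vehicle (SD, n = 3 each). As shares of reads, nuclear complexes I and IV overlapped between media with vehicle. Complex I reached 0.1365% in depleted medium and went down to 0.1362% in rich medium. Complexes II, III and V did not overlap with vehicle, and with bafilomycin A1 no complex did. The part of effective length in the TPM sums was not tested.

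The first comparison set depleted against rich medium in vehicle-treated cells. Of 77 nuclear genes 33 fell and 1 rose, where 15.4% of the 18047 genes tested were called lower and 15.5% higher. The median log2 fold change was -0.59 over the nuclear genes and 0.04 over all genes tested, and 73 of the 77 were below 0. All 3 depleted libraries lay below all 3 rich libraries for 31 nuclear genes, against a background of 18.2%. By complex, 12 of 36 genes fell in complex I, 2 of 4 in complex II, 4 of 8 in complex III, 5 of 11 in complex IV and 10 of 18 in complex V. The count and the median moved with single libraries. Without replicate 3 of rich medium with vehicle 17 genes fell and 2 rose, and the median was -0.29. Without replicate 1 or 2 of depleted medium with vehicle 18 or 22 fell. Without the 2 libraries that stood apart 44 fell and 0 rose. The shares over all genes tested, here and below, are from the main fit. Counts under other settings therefore do not show whether the set or all genes tested moved.

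The second comparison set depleted against rich medium with bafilomycin A1 in both, and shared no library with the first. Here 25 of 77 nuclear genes fell and 0 rose, where 13.6% of all genes tested were called lower and 10.5% higher. The median was -0.59 over the nuclear genes and 0.01 over all genes tested. All 3 libraries were lower for 59 of the 77, against a background of 23.8%. A total of 20 genes fell in both comparisons, 60.6% of the 33 and 80% of the 25. The same overlap was not counted over all genes tested, so these 2 shares have no background beside them. Depleted medium, taken over both treatments, put all 6 libraries below all 6 rich libraries for 21 of 77 nuclear genes and 0 of 13 mitochondrial genes, against 6.27% of all genes tested. These 21 were NDUFA12, NDUFB3, NDUFB4, NDUFB6, NDUFB8, NDUFB10, NDUFC1, NDUFS5, NDUFS6 and NDUFV2 of complex I, SDHC, UQCRC1 and UQCRQ of complexes II and III, COX6B1, COX6C and COX7B of complex IV, and ATP5F1B, ATP5MC3, ATP5MF, ATP5PD and ATP5PO of complex V. The count of 25 became 12 and 13 without replicates 1 and 2 of rich medium with bafilomycin A1, and 16 and 13 without replicates 1 and 2 of depleted medium with bafilomycin A1. It became 42 without replicate 3 of rich medium with vehicle, which enters through the shared spread, and 35 without the 2 libraries that stood apart.

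**Figure D2:**
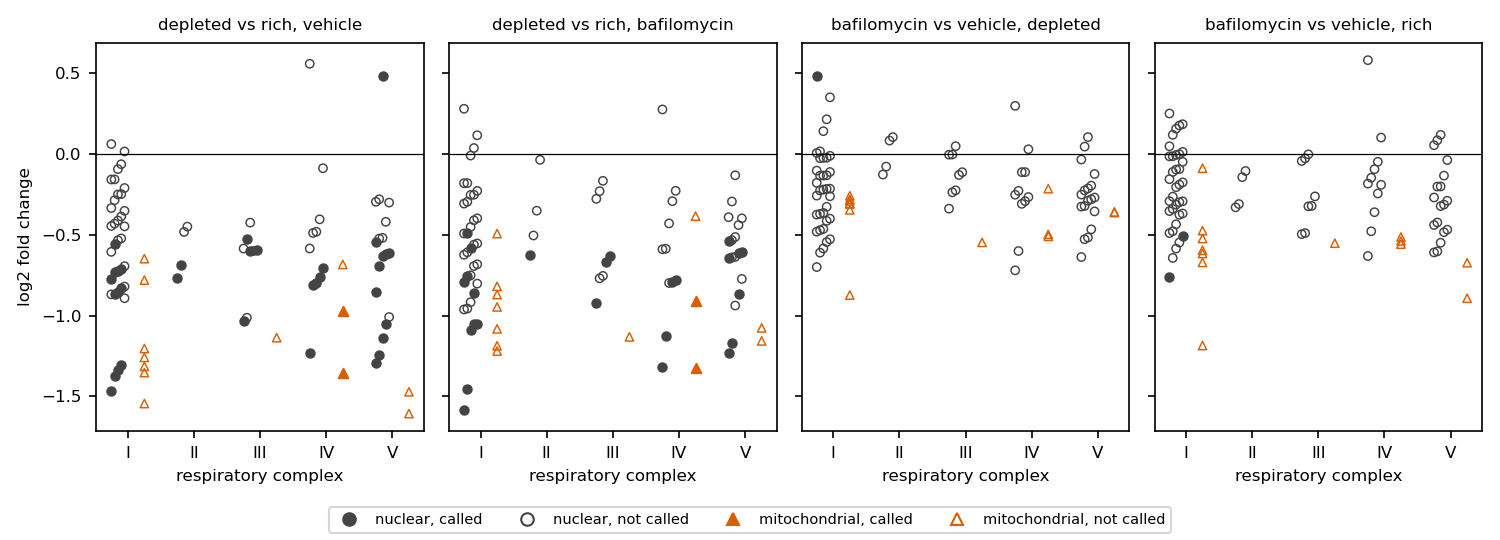
Log2 fold change of each respiratory chain gene by complex in 4 comparisons; circles are nuclear and triangles mitochondrial genes, filled where the adjusted p was under 0.05. Most filled symbols, 33 and 25 nuclear genes, lie below 0 in the 2 medium comparisons at left.

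Complex I is the NADH dehydrogenase. Its 7 nuclear core subunits carry the flavin and iron-sulphur clusters, and 29 accessory subunits surround them. With vehicle, 10 of 29 accessory genes fell, and with bafilomycin A1 8 of 29. Among core genes, NDUFV2 fell with vehicle, and NDUFV1 and NDUFV2 fell with bafilomycin A1. Among accessory genes, 5 of 11 of the NDUFB family fell with vehicle and 4 of 11 with bafilomycin A1, and the NDUFA family had 2 of 12 and 3 of 12. Of all genes tested, 15.4% were called lower with vehicle and 13.6% with bafilomycin A1. The difference between the families was not tested.

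NDUFB3, an accessory subunit of the membrane arm, had 8.37, 8.07 and 12.6 CPM in depleted medium with bafilomycin A1 and 14.5, 15.6 and 17.0 CPM in depleted medium with vehicle. It had 31.0, 31.5 and 24.2 CPM in rich medium with bafilomycin A1 and 32.2, 28.1 and 61.2 CPM in rich medium with vehicle. Its 4 groups separated by medium without overlap, and the depleted groups did not overlap each other. The fall was -1.58 (SE 0.27, adjusted p = 0.000729) with bafilomycin A1 and -1.37 (SE 0.26, adjusted p = 0.00128) with vehicle.

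NDUFB6, also of the membrane arm, had 8.65, 10.6 and 11.8 CPM in depleted medium with bafilomycin A1 and 12.6, 14.8 and 15.6 CPM in depleted medium with vehicle. It had 21.4, 23.8 and 19.0 CPM in rich medium with bafilomycin A1 and 37.2, 23.9 and 47.7 CPM in rich medium with vehicle. The 4 groups did not overlap. It fell by 1.05 on the log2 scale with bafilomycin A1 (SE 0.22, adjusted p = 0.00361) and by 1.34 with vehicle (SE 0.23, adjusted p = 0.000492).

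NDUFS5 and NDUFS6 are accessory subunits despite their names. NDUFS5 was low throughout, with 1.10, 1.35 and 1.61 CPM in depleted medium with bafilomycin A1 and 4.56, 3.57 and 2.97 CPM in rich medium with bafilomycin A1. Vehicle-treated cells had 1.89, 2.40 and 1.78 CPM in depleted and 5.51, 3.08 and 6.47 CPM in rich medium. It fell in both, by 1.45 with bafilomycin A1 (SE 0.33) and by 1.31 with vehicle (SE 0.33), and the media did not overlap. NDUFS6 had 3.29, 4.94 and 3.87 CPM in depleted medium with vehicle and 15.3, 6.63 and 11.8 CPM in rich medium with vehicle, the largest fall among called genes with vehicle at -1.47 (SE 0.33, adjusted p = 0.00342). With bafilomycin A1 it did not pass the test (-0.68, SE 0.32, adjusted p = 0.138).

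NDUFA9, an accessory subunit near the junction of the arms, had the smallest adjusted p of the set with vehicle. It had 64.6, 76.1 and 65.0 CPM in depleted medium with vehicle and 117, 127 and 131 CPM in rich medium with vehicle, a fall of 0.87 (SE 0.14, adjusted p = 0.000473). With bafilomycin A1 it had 59.3, 64.4 and 63.9 CPM in depleted and 93.5, 98.0 and 72.4 CPM in rich medium, a fall of 0.49 (SE 0.14, adjusted p = 0.0217). Both pairs were separate.

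Some complex I genes showed little difference. NDUFB5, NDUFV3 and NDUFA10 had log2 fold changes of 0.06, 0.02 and -0.16 with vehicle and -0.01, 0.12 and -0.18 with bafilomycin A1, each with an SE of 0.14 to 0.17. Their approximate 95% intervals ran from -0.27 to 0.39 (NDUFB5), -0.26 to 0.29 (NDUFV3) and -0.43 to 0.11 (NDUFA10) with vehicle. These 3 were chosen after their values were seen.

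Complex II, succinate dehydrogenase, also belongs to the tricarboxylic acid cycle and has 4 subunits, all nuclear. SDHA, its flavoprotein, had 97.4, 106 and 90.1 CPM in depleted medium with vehicle and 166, 179 and 155 CPM in rich medium with vehicle. These groups were separate, and SDHA fell by 0.77 (SE 0.17, adjusted p = 0.00293). With bafilomycin A1 it had 103, 107 and 105 CPM in depleted and 139, 163 and 100 CPM in rich medium, which overlapped and did not pass (-0.35, SE 0.17, adjusted p = 0.140). SDHC, a membrane anchor, fell in both, by 0.62 with bafilomycin A1 (SE 0.16) and by 0.69 with vehicle (SE 0.16). SDHB, the iron-sulphur subunit, and SDHD, the other anchor, did not pass with vehicle (-0.45 and -0.48, adjusted p = 0.0521 and 0.0828). Blocked by replicate number they did (adjusted p = 0.0202 and 0.0495). SDHA shares sequence with several pseudogenes, so some of its reads cannot be assigned with certainty.

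Complex III moves electrons from coenzyme Q to cytochrome c. Its core proteins UQCRC1 and UQCRC2 fell with vehicle, by 0.53 (SE 0.17) and 0.59 (SE 0.16). UQCRC1 had 117, 114 and 124 CPM in depleted medium with bafilomycin A1 and 190, 204 and 155 CPM in rich medium with bafilomycin A1, without overlap, and fell by 0.63 (SE 0.17, adjusted p = 0.0143). UQCRC2 did not pass with bafilomycin A1 (-0.28, SE 0.16). UQCRC1 was at -0.33 with vehicle, and not called, without replicate 3 of rich medium with vehicle. UQCRFS1, the Rieske iron-sulphur protein, fell with vehicle by 0.60 (SE 0.19); its pseudogene UQCRFS1P1 carried a mean of 1.90 CPM, so the split between them is uncertain. Among small subunits UQCR10 fell with bafilomycin A1 (-0.92, SE 0.25), where all 3 depleted libraries at 17.4 to 20.1 CPM lay below the rich ones at 30.8 to 41.1 CPM. UQCR11 and UQCRH passed with vehicle once blocked by replicate number (adjusted p = 0.0426 and 0.0451), as did NDUFB10 of complex I (adjusted p = 0.0481).

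Complex IV is cytochrome c oxidase, whose nuclear subunits surround the mitochondrial core and exist partly as tissue isoforms. COX7B had 12.9, 12.7 and 16.8 CPM in depleted medium with bafilomycin A1 and 34.5, 38.1 and 33.1 CPM in rich medium with bafilomycin A1. Under vehicle it had 17.9, 24.3 and 27.6 CPM in depleted and 44.9, 27.8 and 90.7 CPM in rich medium, where the highest depleted and the lowest rich library nearly met. It fell by 1.32 (SE 0.32, adjusted p = 0.00784) with bafilomycin A1 and by 1.23 (SE 0.32, adjusted p = 0.00871) with vehicle. Without replicate 3 of rich medium with vehicle the vehicle value was -0.63 and did not pass.

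COX6B1, which faces the intermembrane space, had 38, 33.2 and 41.5 CPM in depleted medium with bafilomycin A1 and 83.9, 90.1 and 71.7 CPM in rich medium with bafilomycin A1. With vehicle it had 53.3, 54.7 and 62.8 CPM in depleted and 73.1, 70.9 and 135 CPM in rich medium. The media did not overlap in either treatment, and it fell by 1.12 (SE 0.21) with bafilomycin A1 and by 0.71 (SE 0.21) with vehicle. COX7A2, the non-muscle isoform of subunit 7A, fell by 0.79 (SE 0.27) with bafilomycin A1 and by 0.81 (SE 0.27) with vehicle. NDUFA4 fell with vehicle only, by 0.80 (SE 0.27, adjusted p = 0.0335), against -0.59 (SE 0.27, adjusted p = 0.126) with bafilomycin A1; the difference between these responses did not pass (interaction adjusted p = 0.789). Without replicate 3 of rich medium with vehicle, COX6B1, COX7A2 and NDUFA4 were at -0.33, -0.32 and -0.31 with vehicle and did not pass. COX6A1 and COX8A, the non-muscle isoforms of subunits 6A and 8, did not pass with vehicle (-0.40 and -0.58) or with bafilomycin A1 (-0.23 and -0.80). COX6A1 shares reads with the pseudogene COX6A1P2, which averaged 14.0 CPM.

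COX7A2L, a supercomplex assembly factor related to subunit 7A, had positive log2 fold changes. It had 91.9, 86.3 and 127 CPM in depleted medium with vehicle and 53.9, 51.4 and 102 CPM in rich medium with vehicle. Replicate 3 was the highest library of both groups, and they overlapped. The log2 fold change of 0.56 (SE 0.26) had an adjusted p of 0.111 and did not pass. Blocked by replicate number it was 0.60 and passed (adjusted p = 0.00578).

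Complex V joins a catalytic F1 head to a ring of c subunits in the membrane. With vehicle 3 of 5 genes of the head and central stalk fell, 3 of 4 of the peripheral stalk, 2 of 3 for subunit c, and 2 of 5 of the other membrane subunits. With bafilomycin A1 these counts were 2 of 5, 2 of 4, 1 of 3 and 1 of 5. The shares called lower over all genes tested were 15.4% with vehicle and 13.6% with bafilomycin A1. Differences between these parts of the enzyme were not tested. ATP5F1B, the catalytic beta subunit, had 413, 381 and 408 CPM in depleted medium with bafilomycin A1 and 622, 721 and 537 CPM in rich medium with bafilomycin A1. Vehicle-treated cells had 445, 447 and 503 CPM in depleted and 753, 666 and 1104 CPM in rich medium. Neither pair overlapped, and it fell by 0.64 (SE 0.20) with bafilomycin A1 and by 0.86 (SE 0.20) with vehicle. ATP5MF, a membrane subunit, fell by 1.17 (SE 0.22, adjusted p = 0.00148) with bafilomycin A1 and by 1.14 (SE 0.22, adjusted p = 0.00125) with vehicle.

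ATP5IF1, the inhibitor that blocks ATP hydrolysis by the enzyme, was called in 1 comparison. It had 7.78, 6.98 and 5.10 CPM in depleted medium with bafilomycin A1 and 14.6, 11.6 and 10.04 CPM in rich medium with bafilomycin A1, without overlap, and fell by 0.87 (SE 0.22, adjusted p = 0.00977). Under vehicle it had 9.69, 10.8 and 8.03 CPM in depleted and 13.3, 10.6 and 11.1 CPM in rich medium (-0.30, SE 0.22, adjusted p = 0.325).

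The 3 genes for subunit c encode one mature protein behind different import sequences. Their values differed in sign with vehicle. ATP5MC3 had 54.0, 49.3 and 55.7 CPM in depleted medium with bafilomycin A1 and 139, 134 and 99.1 CPM in rich medium with bafilomycin A1. With vehicle it had 65.8, 73.6 and 80.2 CPM in depleted and 159, 116 and 247 CPM in rich medium. It fell without overlap in both, by 1.23 (SE 0.22, adjusted p = 0.00129) and by 1.25 (SE 0.22, adjusted p = 0.000805). ATP5MC1 had 13.8, 15.7 and 20.5 CPM in depleted medium with vehicle and 23.1, 28.8 and 69.8 CPM in rich medium with vehicle, and fell by 1.29 (SE 0.36, adjusted p = 0.0137). Without the rich library of 69.8 CPM it was at -0.64 and did not pass. With bafilomycin A1 it had 14.7, 11.9 and 25.1 CPM in depleted and 25.5, 29.4 and 25.3 CPM in rich medium and did not pass (-0.64, SE 0.35).

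ATP5MC2 was the 1 gene of the set called higher in depleted medium in the unblocked fit. It had 95.8, 78.8 and 102 CPM in depleted medium with vehicle and 61.5, 57.5 and 78.9 CPM in rich medium with vehicle. The groups overlapped narrowly, at 78.8 and 78.9 CPM. It rose by 0.48 (SE 0.17, adjusted p = 0.0381), a call lost in 10 of 20 alternative settings. With bafilomycin A1 it had 68.3, 59.0 and 64.6 CPM in depleted and 65.2, 61.8 and 83.2 CPM in rich medium (-0.13, SE 0.17). Per length, ATP5MC2 made up 69.1 ± 5.4% of the TPM of the 3 genes in depleted medium with bafilomycin A1, 74.1 ± 3.1% in depleted medium with vehicle, 56.8 ± 6.5% in rich medium with bafilomycin A1 and 48.5 ± 8.7% in rich medium with vehicle (SD, n = 3 each). ATP5MC3 made up 10.4 ± 0.62, 10.6 ± 0.99, 18.6 ± 3.9 and 20.6 ± 2.1% in the same order. The ATP5MC3 shares of all depleted libraries, 9.66 to 11.6%, lay below those of all rich libraries, 14.0 to 22.6%. The 3 genes together reached 263 ± 23.2, 295 ± 47.7, 303 ± 8.77 and 413 ± 65.1 TPM. ATP5MC2 itself averaged 182 ± 28.6, 219 ± 42.2, 172 ± 15.3 and 203 ± 62.7 TPM in that order, and its vehicle groups overlapped. These shares sum to a whole, so lower levels of the other genes raise the ATP5MC2 share.

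**Figure D3:**
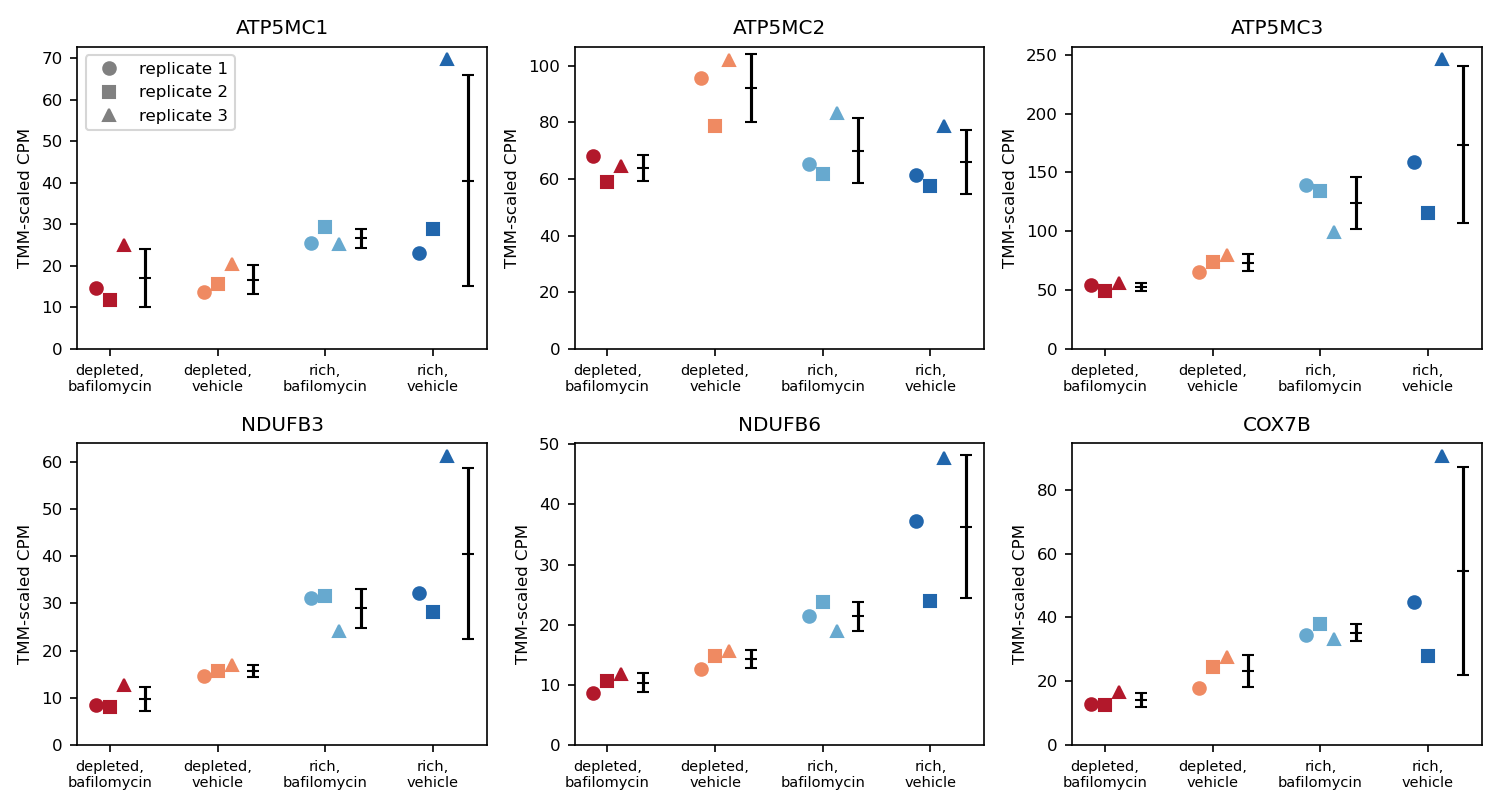
TMM-scaled CPM of 6 nuclear genes in each library, by group, with the mean and SD over 3 libraries; axes start at 0. ATP5MC2 is highest in depleted medium with vehicle, at 78.8 to 102 CPM, whereas ATP5MC3, NDUFB3, NDUFB6 and COX7B are lower in the depleted libraries and ATP5MC1 spans 23.1 to 69.8 CPM in rich medium with vehicle.

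Bafilomycin A1 against vehicle gave few calls in either medium. In depleted medium 1 of 77 nuclear genes rose and 0 fell, where 5.5% of all genes tested were called higher and 5.91% lower. The median over the nuclear genes was -0.22 and over all genes -0.03, and 64 of 77 were below 0. Without replicate 2 of depleted medium with bafilomycin A1 the nuclear median was -0.14, and without its replicate 3 it was -0.35. All 3 libraries were lower for 22 genes, against a background of 20.1%. With any 1 of the 6 depleted libraries left out 0 were called. Same-numbered depleted libraries correlated at 0.153, 0.363 and 0.400 in their deviations from group means, but the labels do not state a pairing. A block by number, shared over all 12 libraries, gave 1 gene that rose and 5 that fell. Those that fell were NDUFB3 (-0.72), ATP5MF (-0.62), COX6B1 (-0.60), NDUFB4 (-0.55) and ATP5MC2 (-0.52), with adjusted p of 0.0119 to 0.0445.

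NDUFS1, the largest core subunit of complex I, was the gene that rose. It had 190, 207 and 207 CPM in depleted medium with bafilomycin A1 and 146, 149 and 138 CPM in depleted medium with vehicle, without overlap, a rise of 0.48 (SE 0.14, adjusted p = 0.0418). The call was lost in 9 of 20 alternative settings. In rich medium NDUFS1 had 178, 182 and 137 CPM with bafilomycin A1 and 180, 166 and 168 CPM with vehicle (-0.05, SE 0.14), and the difference between the responses was 0.53 (SE 0.20, adjusted p = 0.133). Its depleted libraries lay all above the rich ones with bafilomycin A1 (0.28, SE 0.14, adjusted p = 0.174), and all below them with vehicle (-0.25, SE 0.14, adjusted p = 0.203).

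In rich medium, where the vehicle libraries are those of the first comparison, 2 of 77 nuclear genes fell and 0 rose, against 4.78% of all genes tested called lower and 6.15% higher. The median over the nuclear genes was -0.24 and over all genes 0.02; without replicate 3 of rich medium with vehicle the nuclear median turned to 0.07, and without its replicate 2 it was -0.39. NDUFA9 fell by 0.51 (SE 0.14, adjusted p = 0.035) and NDUFB6 by 0.76 (SE 0.22, adjusted p = 0.0393), and each call was lost in 10 of 20 alternative settings. All 3 libraries were lower for 6 genes, against a background of 11.1%. Without replicate 2 of rich medium with vehicle 15 genes fell, and without replicate 3 of that group 0 fell and 2 rose. Without replicate 1 or 3 of rich medium with bafilomycin A1, or without the 2 libraries that stood apart, 0 were called. The interaction, which sets the bafilomycin A1 response of depleted cells against that of rich cells, called 0 of 77 nuclear and 0 of 13 mitochondrial genes in edgeR's quasi-likelihood test and 0 in DESeq2's, where 6.18% of all genes tested were called, 2.35% higher and 3.83% lower. At an unadjusted p under 0.05 there were 2 nuclear genes and 0 mitochondrial. Without replicate 3 of rich medium with vehicle 3 nuclear genes were called, and blocked by number 1 was.

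**Figure D4:**
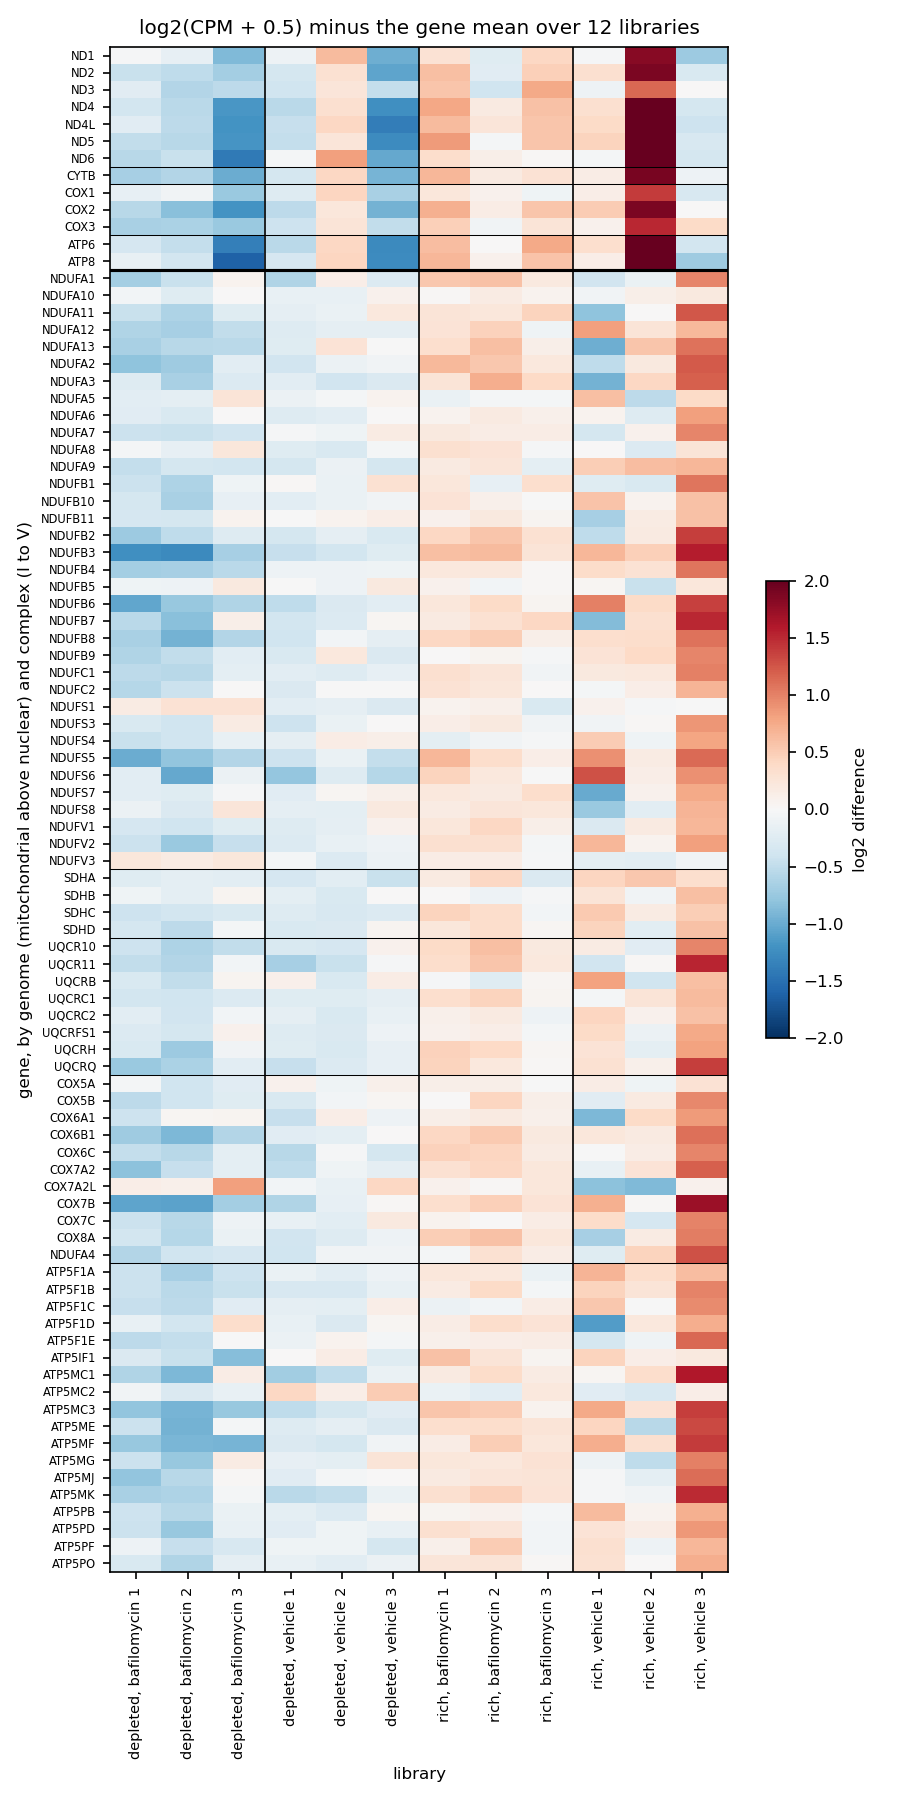
Log2(CPM + 0.5) of 89 of the 90 genes in each library, minus the gene's mean over 12 libraries; mitochondrial genes are above nuclear ones, each ordered by complex. Replicate 2 of rich medium with vehicle is the highest library of its group for 13 of 13 mitochondrial genes and replicate 3 for 67 of 77 nuclear genes.

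Of the 13 mitochondrial genes 2 fell in each medium comparison, COX2 and COX3, both core subunits of complex IV. That is 15.4% of the 13, where 13.6% of all genes tested were called lower with bafilomycin A1 and 15.4% with vehicle, so the share was near the background. All 13 log2 fold changes were below 0 in both, with medians of -1.08 with bafilomycin A1 and -1.26 with vehicle, the second at -0.30 without replicate 2 of rich medium with vehicle. COX2 had 339, 279 and 215 CPM in depleted medium with bafilomycin A1 and 817, 548 and 727 CPM in rich medium with bafilomycin A1, without overlap, a fall of 1.33 (SE 0.41, adjusted p = 0.0298). Vehicle-treated cells had 347, 582 and 259 CPM in depleted and 708, 1832 and 498 CPM in rich medium, a fall of 1.36 (SE 0.41, adjusted p = 0.0222), and replicate 2 was the highest of both groups. COX3 had 706, 714 and 664 CPM in depleted medium with bafilomycin A1 and 1536, 1058 and 1329 CPM in rich medium with bafilomycin A1, a fall of 0.91 (SE 0.32, adjusted p = 0.0476). Under vehicle it had 829, 1326 and 787 CPM in depleted and 1177, 3156 and 1441 CPM in rich medium, a fall of 0.97 (SE 0.32, adjusted p = 0.0296).

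With bafilomycin A1 10 of 13 genes had all depleted libraries below all rich ones, and with vehicle 0 of 13 did, against backgrounds of 23.8% and 18.2%. The genes moved together, with replicate 2 highest for 13 of 13 in both vehicle groups, so they are not independent observations. The vehicle values moved with replicate 2 of rich medium: without it 0 of 13 were called, COX2 and COX3 were at -0.60 and -0.41, COX1 was at -0.01, and ND1, ND6 and ATP8 turned to 0.34, 0.31 and 0.030. Without replicate 1 or 3 of depleted medium with vehicle 0 were called as well, without its replicate 2 5 were, and without replicate 1 or 3 of rich medium with vehicle 4 or 8 were. With bafilomycin A1 the count was 0 without replicate 2 or 3 of depleted medium or replicate 1 or 3 of rich medium, 1 without replicate 1 of depleted medium, and 6 without replicate 2 of rich medium with vehicle. It was 1 without replicate 1 or 3 of depleted medium with vehicle. COX2 lay between -1.49 and -1.17 with bafilomycin A1 and between -1.74 and -0.60 with vehicle over the 20 alternatives. Without the 2 libraries that stood apart 1 was called with bafilomycin A1 and 4 with vehicle.

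The other mitochondrial genes did not pass. COX1 had 7566, 8130 and 5076 CPM in depleted medium with bafilomycin A1 and 9993, 9060 and 8058 CPM in rich medium with bafilomycin A1 (-0.38, SE 0.40). With vehicle it had 7160, 11527 and 5411 CPM in depleted and 9345, 22503 and 6857 CPM in rich medium (-0.68, SE 0.40). CYTB, the mitochondrial subunit of complex III, was at -1.13 with bafilomycin A1 and -1.14 with vehicle (SE 0.45 each, adjusted p = 0.0864 and 0.0718). The 7 ND genes of complex I ran from -1.22 for ND5 to -0.49 for ND1 with bafilomycin A1 and from -1.55 for ND5 to -0.65 for ND3 with vehicle, with SEs of 0.34 to 0.74. ATP6 and ATP8 of complex V were at -1.16 (SE 0.65) and -1.08 (SE 0.80) with bafilomycin A1 and at -1.47 (SE 0.65) and -1.61 (SE 0.81) with vehicle. For bafilomycin A1 against vehicle 0 of 13 were called in depleted medium (median -0.35) and 0 of 13 in rich medium (median -0.56), in edgeR and DESeq2 alike and at an unadjusted p under 0.05 in edgeR. Both medians changed sign with 1 library: without replicate 2 of depleted medium with vehicle the first was 0.12, and without replicate 2 of rich medium with vehicle the second was 0.39.

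ATP8 and ATP6 share bases on the same strand, and so do ND4L and ND4, so reads there cannot be assigned to one gene of the pair with certainty. The ATP8 and ATP6 overlap is 46 bases long, at chrMT:8527-8572 (GRCh38.p14, plus strand, coordinates from RefSeq, bases from GENCODE transcripts). That of ND4L and ND4 is 7 bases long, at chrMT:10760-10766. The first is shown in lower case because it is the stretch on which the 2 counts cannot be separated.
ATP8/ATP6 overlap: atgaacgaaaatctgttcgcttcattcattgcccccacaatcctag

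The mix of mitochondrial mRNAs was compared between media. Within all reads of the 13 genes, COX1 took 72.2, 75.0 and 71.0% in depleted medium with bafilomycin A1 and 70.4, 69.5 and 71.3% in depleted medium with vehicle. It took 62.1, 69.1 and 59.6% in rich medium with bafilomycin A1 and 66.5, 61.1 and 64.1% in rich medium with vehicle. All 6 depleted libraries were above all 6 rich libraries, by 7.83 percentage points in the mean. COX2 took 2.58 to 3.51% in the depleted libraries and 4.18 to 5.38% in the rich ones, again without overlap, and ND5 took 0.941 to 1.22% against 1.27 to 2.14%. ND4 was lower with bafilomycin A1, at 4.31 to 5.08% in depleted and 5.96 to 7.64% in rich medium, and overlapped with vehicle. The shares of ND4L, ND6, CYTB and ATP6 were likewise lower without overlap with bafilomycin A1 and overlapped with vehicle. ND1 averaged 3.02% in the depleted and 2.77% in the rich libraries, with overlap. These shares sum to a whole, so a higher share of COX1 lowers the others. No library crossed between the media for COX1, COX2 or ND5. These shares were not tested.

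**Figure D5:**
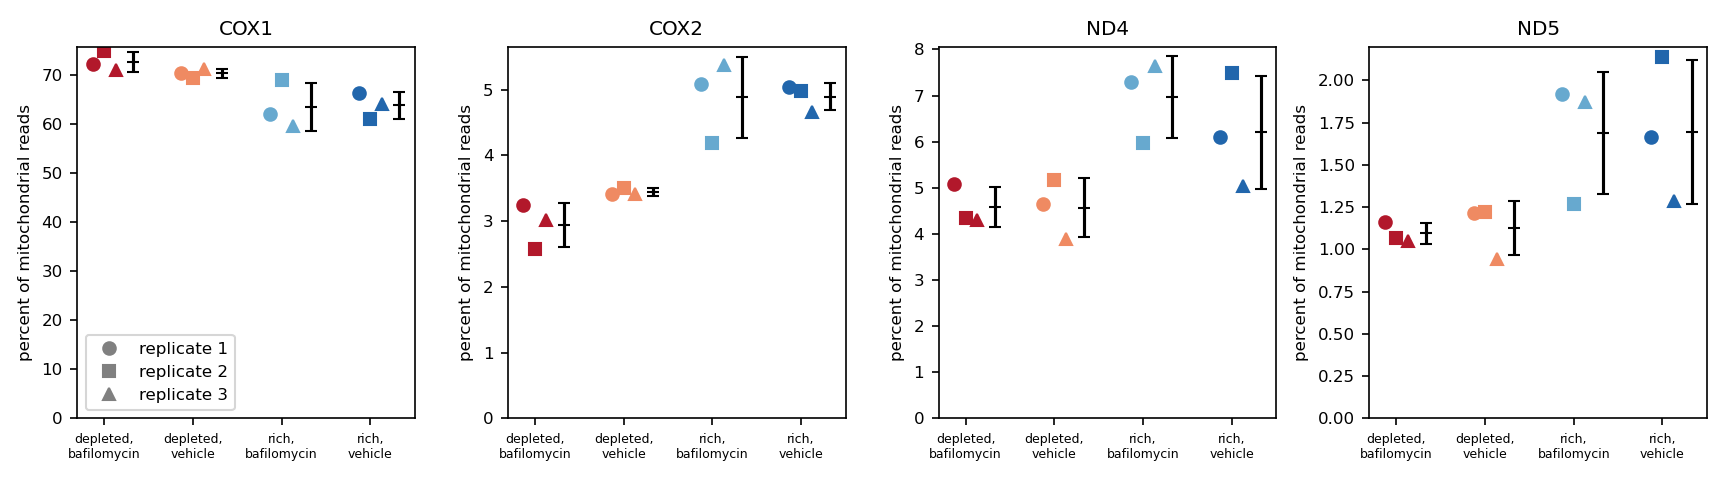
Share of reads of the 13 mitochondrial genes taken by COX1, COX2, ND4 and ND5 in each library, with the mean and SD of each group; axes start at 0. COX1 lies between 69.5 and 75.0% in the 6 depleted libraries and between 59.6 and 69.1% in the 6 rich libraries, and COX2 and ND5 are lower in all depleted libraries.

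Other subunits and regulators outside the naming rule were read beside the set. COX4I1, the common isoform of complex IV subunit 4, did not pass in any comparison (-0.45 with bafilomycin A1 and -0.24 with vehicle, SE 0.18 each, for depleted against rich). NDUFAB1, an acyl carrier protein found in complex I, fell with vehicle by 0.90 (SE 0.26). CYC1, the cytochrome subunit of complex III, fell by 0.79 (SE 0.27). CYCS, cytochrome c itself, had 51.0, 56.5 and 60.04 CPM in depleted medium with vehicle and 218, 104 and 160 CPM in rich medium with vehicle, without overlap, and fell by 1.52 (SE 0.28, adjusted p = 0.00088). With bafilomycin A1 it was at -0.29 (SE 0.27). NDUFA4L2, a paralogue of NDUFA4 induced in hypoxia, rose in depleted medium with vehicle (2.89, SE 0.62) and in rich medium with bafilomycin A1 against vehicle (2.02, SE 0.62), at no more than 1.70 CPM in any library.

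TFAM, which packages mitochondrial DNA and starts its transcription, had 134, 135 and 144 CPM in depleted medium with bafilomycin A1, 155, 164 and 163 CPM in depleted medium with vehicle, 220, 229 and 162 CPM in rich medium with bafilomycin A1, and 401, 283 and 318 CPM in rich medium with vehicle. It fell in depleted medium by 0.57 with bafilomycin A1 (SE 0.17) and by 1.05 with vehicle (SE 0.17), and fell by 0.71 (SE 0.17) with bafilomycin A1 in rich medium. TFB2M, the second transcription factor of mitochondrial DNA, rose by 0.77 (SE 0.17) with bafilomycin A1 in depleted medium. Its response differed between media by 1.21 (SE 0.25, adjusted p = 0.0125). POLRMT, the mitochondrial RNA polymerase, did not pass (0.64 with bafilomycin A1 in depleted medium, adjusted p = 0.0503). ESRRA, a nuclear receptor that activates respiratory genes, rose in depleted medium with vehicle by 0.81 (SE 0.24) and with bafilomycin A1 in rich medium by 0.78 (SE 0.24). NRF1, another activator, was not called in any comparison, and PPARGC1A and COX4I2 did not pass the low-count filter.

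Wider mitochondrial lists were counted in the same fit, where 13.6% of all genes tested were called lower and 10.5% higher with bafilomycin A1, and 15.4% lower and 15.5% higher with vehicle. For depleted against rich medium, 10 of 82 mitochondrial ribosomal protein genes fell with bafilomycin A1 (1 rose, median -0.27) and 34 of 82 with vehicle (1 rose, median -0.56). MRPL16 fell in both, by 1.43 (SE 0.22) with bafilomycin A1 and by 1.22 (SE 0.22) with vehicle. Of 56 assembly factor genes 3 fell and 3 rose with bafilomycin A1 (median -0.09) and 16 fell and 2 rose with vehicle (median -0.35). HIGD1A, a complex IV assembly protein, fell in both (-1.28 with bafilomycin A1 and -1.31 with vehicle, SE 0.25 each), BCS1L, which inserts the Rieske protein, fell with vehicle (-1.31, SE 0.21), and FOXRED1, a complex I assembly factor, rose with bafilomycin A1 (0.71, SE 0.18). Of 37 genes for mitochondrial DNA maintenance and transcription 4 fell and 3 rose with bafilomycin A1 (median -0.10) and 20 fell with vehicle (median -0.43). TRMT10C, a subunit of mitochondrial RNase P, fell with vehicle (-1.31, SE 0.20), and SUPV3L1, a helicase of mitochondrial RNA decay, rose with bafilomycin A1 (0.89, SE 0.13). With bafilomycin A1 the share that fell was below that of all genes tested in each of these 3 lists. The lists were not tested as sets, and the difference in counts between treatments was not tested.

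Of 19 tricarboxylic acid cycle genes 2 fell and 1 rose in depleted against rich medium with bafilomycin A1, and 10 fell and 2 rose with vehicle, among them MDH2, malate dehydrogenase (-0.87, SE 0.17). Of 16 genes for cytochrome c, other subunits and coenzyme Q synthesis 1 fell and 2 rose with bafilomycin A1, and 6 fell and 2 rose with vehicle. PDSS1, which starts the coenzyme Q tail, fell in both (-0.90 with bafilomycin A1 and -1.33 with vehicle, SE 0.18 each). Of 20 nuclear regulators of mitochondrial biogenesis 3 fell and 4 rose with bafilomycin A1, and 3 fell and 5 rose with vehicle. MYC fell in both (-1.29 with bafilomycin A1 and -1.19 with vehicle, SE 0.22 each) and PPARA, a receptor for fatty acids, rose with vehicle (1.99, SE 0.20). Of 20 stress and quality control genes 4 fell and 3 rose with bafilomycin A1, and 4 fell and 5 rose with vehicle. HSPE1, the mitochondrial chaperonin partner, fell in both (-1.31 with bafilomycin A1 and -1.91 with vehicle, SE 0.24 each), and LONP1, a matrix protease, rose with vehicle (0.86, SE 0.16).

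For bafilomycin A1 against vehicle in depleted medium, 2 of 56 assembly factor genes, 4 of 37 of DNA maintenance and transcription and 1 of 82 mitochondrial ribosomal protein genes rose. So did 2 of 20 regulators, 2 of 19 tricarboxylic acid cycle genes, 1 of 16 of the cytochrome c and coenzyme Q list and 1 of 20 stress genes. In each list 0 fell. Over all genes tested, 5.5% were called higher and 5.91% lower. In rich medium 9 of 82 mitochondrial ribosomal protein genes, 9 of 37 of DNA maintenance and transcription and 3 of 56 assembly factor genes fell. So did 3 of 16 of the cytochrome c and coenzyme Q list and 2 of 20 stress genes. There 4 of 20 regulators, 2 of 19 tricarboxylic acid cycle genes, 1 of 16 of the cytochrome c and coenzyme Q list and 4 of 20 stress genes rose. Over all genes tested, 4.78% were called lower and 6.15% higher in rich medium. BNIP3 and PINK1, both of mitophagy, rose in rich medium by 1.93 (SE 0.29) and 1.13 (SE 0.20). The interaction called 5 of 37 genes of DNA maintenance and transcription and 2 of 56 assembly factor genes higher in depleted medium, NDUFAF4 at 1.15 (SE 0.30) and FOXRED1 at 0.97 (SE 0.26), and 0 of 82 mitochondrial ribosomal protein genes. It called 2.35% of all genes tested higher and 3.83% lower. Of the other lists, it called 1 gene higher and 1 lower among regulators and among tricarboxylic acid cycle genes, 1 lower among stress genes, and 0 of the cytochrome c and coenzyme Q list.

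Most subunit mRNAs are short. The deposited median gap between length and effective length, which follows insert size, was 176 to 199 bases in the 3 libraries of depleted medium with bafilomycin A1 and 202 to 260 bases in the other 9. Of nuclear genes under 1000 bases 15 of 44 fell with bafilomycin A1, 34.1%, against 13.4% of all genes tested of that length; of the longer ones 10 of 33 fell, 30.3%, against 13.6%. With vehicle 17 of 44 short genes fell, 38.6%, against 12.1%, and 16 of 33 longer ones, 48.5%, against 15.7%. The median of all genes under 1000 bases was -0.22 with bafilomycin A1 and -0.02 with vehicle. The part of insert size in these counts was not tested.

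Promoters of respiratory chain genes are known for sites of NRF1, of ETS family factors such as GABPA, of YY1 and of ERR receptors. RefSeq promoter windows (GRCh38.p14, 250 bases before to 50 after the start) matched 65 of the 77 nuclear genes and were searched on both strands for fixed words. The NRF1 word GCATGCG was in 13 of 65 windows, 20.0%, against 3.91% of all 35116 windows. The ETS word CCGGAAG was in 19, 29.2%, against 10.3%. The YY1 word AAGATGG was in 16, 24.6%, against 5.84%, the ERR word AAGGTCA in 9, 13.8%, against 3.92%, and the E-box CACGTG in 7, 10.8%, against 7.26%. These sets are unlike. The members are expressed protein-coding genes with a single window each. The 35116 windows were not limited to a single window per gene, or to expressed or protein-coding genes. Among windows of genes that fell with vehicle, 3 of 25 held the NRF1 word and 4 of 25 the ETS word, against 9 of 39 and 15 of 39 of those not called. The YY1 word was in 6 of 25 and 10 of 39, the ERR word in 2 of 25 and 7 of 39, and the E-box in 2 of 25 and 5 of 39. These differences were not tested. A match describes letters in the window and not binding.

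Of the 22 nuclear genes that fell in both medium comparisons or rose in any, 16 had a window. From those with a word upstream of the start, 5 are shown as 60 upstream bases with the words in capitals, since they set the gene that rose in depleted medium (ATP5MC2), the one that rose with bafilomycin A1 (NDUFS1) and 3 that fell in depleted medium side by side. The stretches are from RefSeq (GRCh38.p14), 5′ to 3′ on the gene's strand. ATP5MC2 (chr12:53676090-53676149, minus strand) holds the NRF1 word on both strands as a palindrome, within the span of the annotated gene before a downstream start. NDUFS1 (chr2:206159568-206159627, minus strand), ATP5PD (chr17:75047037-75047096, minus strand) and COX6B1 (chr19:35648263-35648322, plus strand) hold the ETS word as its reverse complement, and NDUFB4 (chr3:120596271-120596330, plus strand) the ERR word.
ATP5MC2: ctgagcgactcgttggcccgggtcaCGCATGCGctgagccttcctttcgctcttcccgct
NDUFS1: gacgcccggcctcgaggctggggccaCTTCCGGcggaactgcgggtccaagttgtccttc
ATP5PD: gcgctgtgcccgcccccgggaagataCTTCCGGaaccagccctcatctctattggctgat
COX6B1: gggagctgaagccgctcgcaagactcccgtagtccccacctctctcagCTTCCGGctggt
NDUFB4: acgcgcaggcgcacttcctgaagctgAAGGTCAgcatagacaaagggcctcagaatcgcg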

How the data were processed

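The deposited per-sample tables hold estimated counts of reads and TPM for 54553 genes, with gene lengths and effective lengths in bases, per the file headers. A second table, deposited for all samples at once, gives counts as whole numbers and served as an alternative. Per the labels' protocols, libraries were stranded total RNA after ribosomal RNA depletion. The submitters' processing notes name DRAGEN and GRCh38, without a role for either. Strand setting and annotation release were not given in the sources used here. Reads of genes with antisense partners or near-identical copies therefore cannot be assigned with certainty. Of the series-wide columns 0 were left unmapped.

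The estimated counts entered the test rounded to integers. Low genes were removed with filterByExpr of edgeR 4.0.16 in R 4.3.3 (minimum count 10, minimum total 15), leaving 18047, and scaled by TMM. All 12 libraries entered 1 fit with a mean for each group, which left 8 residual degrees of freedom. Contrasts were tested with edgeR's quasi-likelihood F test, Benjamini-Hochberg adjusted over all genes tested, and a gene was called at an adjusted p under 0.05. Fold changes are log2, and each SE is the fold change over the root of F. Library sizes ran from 12969811 to 51649207 reads. On counts simulated for the vehicle medium comparison over 17592 genes, the test recovered 59% of genes changed 2-fold and 91% of those changed 4-fold, with 4.46% false calls. The simulation changed 100 genes 2-fold and 100 genes 4-fold, whereas 2802 genes were called higher and 2775 lower in the data. Its counts were drawn for each gene separately, without shifts of whole libraries, so these rates may not hold for the data. The highest correlation between 2 libraries was 0.987, and none was counted as a duplicate.

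Alternatives were DESeq2 1.42.0 (test and size factors), no low-count filter, a fit of only the 6 libraries compared, a replicate block, the series-wide counts, scaling without mitochondrial genes, leaving out each library, and leaving out the 2 libraries that stood apart, the last chosen after seeing the data. Whether replicate numbers pair the samples was checked from the correlation of same-numbered deviations from group means, since the labels do not say. In vehicle medium pairs it was 0.129, 0.371 and 0.471, and in the depleted pairs 0.153, 0.363 and 0.400.

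The members and the lists (assembly factors; mitochondrial DNA maintenance and transcription; mitochondrial ribosomal proteins; nuclear regulators; tricarboxylic acid cycle; cytochrome c, other subunits and coenzyme Q; stress and quality control) were chosen with earlier results of these data known, so they are described by counts and medians. Named genes were all mitochondrial members, up to 5 called genes of largest change in each direction per comparison, the highest level and smallest adjusted p per complex, isoform members, and a panel of 12 neighbours; other members were named after their values were seen. Lists have up to 3 examples per comparison. RefSeq promoter windows and mitochondrial coordinates are from GRCh38.p14. The result for 1 member is not reported here, though that gene is in the counts, sums and medians.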

Additional observations from a re-analysis of the deposited data

How the results depend on the processing

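Of 61 gene results under 20 alternatives each, 1059 values kept their direction and side of the threshold, 108 lost the call, 50 gained one and 3 reversed. The falls of NDUFB3, NDUFB6, NDUFS5, ATP5MC3 and ATP5MF in depleted medium kept their call under all 20, in both treatments. The 3 that reversed were ND6, ATP8 and ND1 in the vehicle medium comparison, which spanned -1.82 to 0.31, -2.12 to 0.030 and -1.24 to 0.34 over the libraries left out, the highest without replicate 2 of rich medium with vehicle.

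Counts of nuclear calls, in either direction, for depleted against rich medium with bafilomycin A1 were 25, and 42 with no low-count filter, 48 with only the 6 libraries compared, and 12 to 42 over single libraries left out. With vehicle they were 34, and 20 with only the 6 libraries compared, and 18 to 47 over libraries left out. For bafilomycin A1 in depleted medium they were 1, and 5 with DESeq2, 5 with no filter, 12 with only the 6 libraries, 3 with the series-wide table, 4 without the 2 libraries that stood apart, and 0 to 8 over libraries left out. In rich medium they were 2, and 4 with DESeq2, 5 with no filter, 0 with only the 6 libraries, 0 without the 2 that stood apart, and 0 to 15 over libraries left out. The interaction gave 0, and 0 to 3 over libraries left out. The self-test and the shares over all genes tested bear on the main setting only, and the cause of these moves was not tested.

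Mitochondrial calls with bafilomycin A1 were 2, and 11 with no filter, 11 with only the 6 libraries, 1 without the 2 that stood apart, and 0 to 6 over libraries left out. With vehicle they were 2, and 12 with no filter, 0 with only the 6 libraries, 4 with the series-wide table, 4 without the 2 that stood apart, and 0 to 8 over libraries left out. Bafilomycin A1 gave 0 calls in each medium, and with no filter 1 in depleted and 6 in rich medium.

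With the replicate block, nuclear calls were 6 for bafilomycin A1 in depleted medium, 40 for the medium with vehicle and 1 for the interaction. In the medium comparison with bafilomycin A1, same-number r was -0.115, -0.072 and 0.044, and the block gave 40 calls, against 25 without it. For bafilomycin A1 in rich medium, r was 0.143, -0.022 and 0.115, and the block gave 4. Beyond the genes given in the results the block changed no call for the medium with vehicle or for bafilomycin A1 in depleted medium. The log2 ratio of nuclear to mitochondrial reads differed by 0.12 between media with bafilomycin A1 (-0.16 to 0.29 over libraries left out) and by 0.16 with vehicle (-0.51 to 0.74).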
